A study of Solanum lycopersicum x Solanum pennellii and Solanum lycopersicum with 21 samples.

Results

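Anthers of 2 tomato introgression lines, IL-4_2 and IL-7_2, were compared with each other, and 8 of the 21 arrays of the study carried them. The 4 arrays titled IL-4_2 were set against the 4 arrays titled IL-7_2, and for each gene named here the 6 arrays of M82 served to say which line had moved away from the domesticated parent. M82 is a processing tomato, and an introgression line is M82 in which a stretch of one chromosome has been replaced by that of the wild relative Solanum pennellii. By the usual naming of these lines the first number is that of the chromosome with the wild stretch. Both lines thus share the M82 background, and the labels list the crosses as Solanum lycopersicum x Solanum pennellii. The lines are termed hybrids in the design text. Neither that text nor the labels say whether a plant held the wild stretch on one or both copies of the chromosome, or how long that stretch is. Gene positions were not at hand, so whether a named gene lies in a wild stretch was not checked. M82, IL-4_2 and IL-7_2 plants were grown alike in pots in a greenhouse, and anthers were taken 1 day before the flowers opened. The M82 arrays are titled Pollen Control M82, while the titles of the line arrays name the line alone. The labels do not tell whether arrays of a line stem from different plants, and p-values then reflect the spread among arrays alone, which may be technical.

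Shortly before a tomato flower opens, its anthers hold nearly mature pollen, the remains of the tapetum that fed it, and green wall layers that will dry and split. Plant hormones made or sensed in the anther take part in these steps, jasmonate above all in pollen release and gibberellin in pollen and tapetum development. Wall enzymes take part too, because the pollen tube and the splitting anther wall both need loosened cell walls. An expression array reads each transcript through short probes designed on the cultivated tomato. A lower value in a line can therefore be a lower transcript level or a weaker match of the probes to the wild form of the transcript, and these cannot be told apart here. In whole anthers, fewer cells of a type and less RNA per cell cannot be told apart either.

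Levels are the deposited log2 expression values, so a difference of 1 is a doubling. The values ran from 3.39 to 14.69, and array medians from 9.49 to 9.55. Array values carry no read depth, and the number of arrays limits the precision. IL-7_2 array 2 stood apart: its mean correlation with the other IL-7_2 arrays across probe sets was 0.941, against 0.965 to 0.974 for IL-7_2 arrays 1, 3 and 4 and 0.989 to 0.994 within IL-4_2. The means of IL-7_2 arrays 1, 3 and 4 include their correlations with array 2, and arrays 3 and 4 correlated with each other at 0.995. Because array 2 stood apart, differences of the named genes and probe sets are given with all arrays and again with IL-7_2 array 2 left out. Values of genes that were not called are those with all arrays unless stated. Of the pollen marker list, 7 genes had a symbol (PRK1, PRK2, PRK3, Shy, Stig1, LIN7 and lin5), although Stig1 is best known from the stigma and lin5 from ovary and fruit. Shy and LIN7 were near the top of the scale in both lines, with means of 14.06 and 14.02 in IL-4_2 and 13.95 and 13.94 in IL-7_2. Stig1 lay near the bottom of the scale in both lines. No tapetum marker had a symbol, so that cell layer could not be checked.

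IL-4_2 and IL-7_2 anthers differed at 497 of 10101 probe sets (limma, adjusted p of at most 0.05 over all probe sets), which is 4.92% of those tested. IL-4_2 was higher at 216 of them (2.14%) and lower at 281 (2.78%). The difference was at least 2-fold at 170 probe sets and at least 8-fold at 26. Among genes with a descriptive symbol, 16 were higher in IL-4_2 and 14 were lower. The genes higher in IL-4_2 included FLACCA and AO1 of abscisic acid synthesis, HPL, AOS and OPR3 of oxylipin synthesis, the signalling genes DGK1 and CDPK1, 20ox-2 of gibberellin synthesis and CS2 of the shikimate pathway. Those lower in IL-4_2 included tXET-B2, PME2.1, MAN2 and PE1, which act on the cell wall, the sugar carriers HT1 and HT2, SK of the shikimate pathway, IAA16 of auxin signalling and ADC of polyamine synthesis. The remaining calls were 9 locus-numbered genes, 454 probe sets without a name, and further probe sets of genes that have several.

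Which line had moved away from M82 was read from each line's own comparison with M82, where 185 probe sets were called for IL-4_2 (1.83%) and 287 for IL-7_2 (2.84%). These comparisons share the M82 arrays. A line that does not pass its own comparison is not thereby shown to equal M82. Of the 497 probe sets, IL-7_2 alone departed from M82 at 186, IL-4_2 alone at 124, both at 7 and neither at 180. The balance differed by direction and size. Of the 76 probe sets at least 2-fold higher in IL-4_2, IL-7_2 alone departed at 53 and IL-4_2 alone at 8, and neither at 13. Of the 94 at least 2-fold lower in IL-4_2, IL-4_2 alone departed at 47, IL-7_2 alone at 25 and neither at 20. When IL-7_2 array 2 was left out, neither line departed at 85 of the 157 probe sets at least 2-fold higher in IL-4_2 and at 84 of the 170 at least 2-fold lower, with IL-7_2 alone at 55 and 30 and IL-4_2 alone at 12 and 55.

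**Figure D1:**
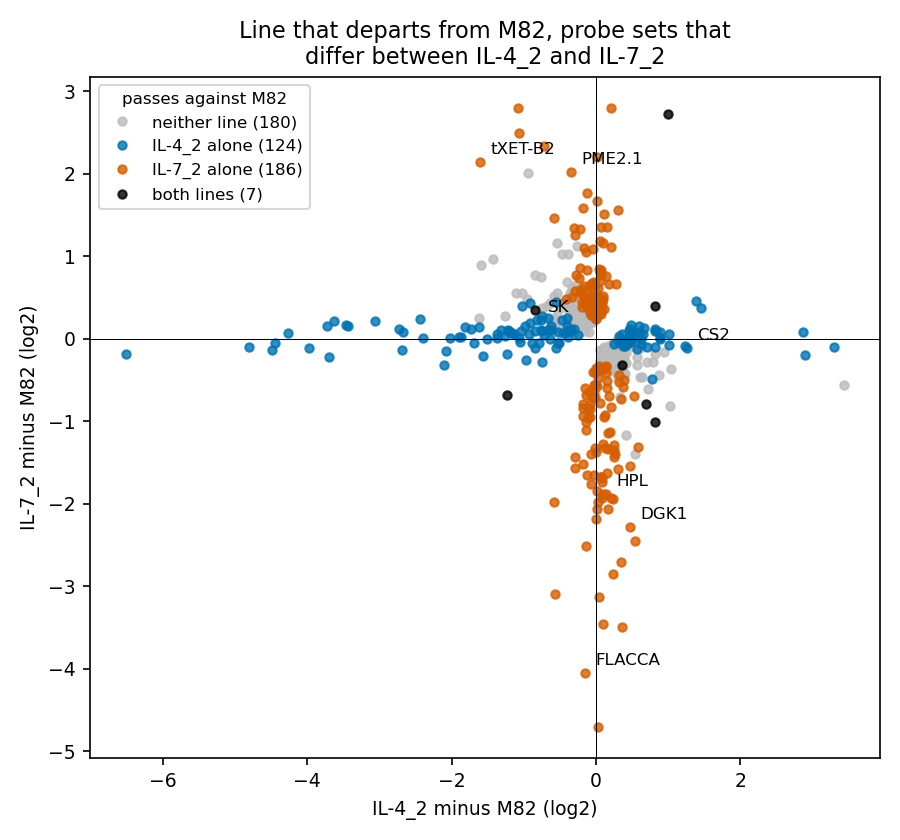
Each point is one of the 497 probe sets called between IL-4_2 and IL-7_2 with all arrays, with or without a gene name. Some named genes are labelled. The horizontal axis gives the log2 difference of IL-4_2 from M82 and the vertical axis that of IL-7_2 from M82, and colours show which line passed its own comparison. FLACCA lies far below zero on the IL-7_2 axis (-4.05) and near zero on the IL-4_2 axis (-0.15), whereas CS2 (1.26 in IL-4_2, -0.12 in IL-7_2) and SK (-0.81, 0.22) lie along the IL-4_2 axis.

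Abscisic acid is the hormone that closes stomata and prepares tissues for drying. Its last step, from abscisic aldehyde to the acid, is carried out by an aldehyde oxidase that works only with a sulfurated molybdenum cofactor. FLACCA (probe set Les.3454.1.S1_at) encodes the sulfurase that activates this cofactor, and tomato flacca mutants wilt for lack of abscisic acid. FLACCA stood at 10.09, 10.02, 10.02 and 10.30 on the 4 IL-4_2 arrays and at 5.91, 6.02, 6.36 and 6.54 on the IL-7_2 arrays, with M82 between 10.07 and 10.39 (median 10.32). The lines did not overlap, and all 4 IL-7_2 arrays lay far below every M82 array. The difference was 3.90 ± 0.12 (SE), or 14.9-fold higher in IL-4_2 (limma adjusted p = 9.11e-14). IL-7_2 was the line that departed, by -4.05 from M82 (adjusted p = 2.7e-14), while IL-4_2 lay -0.15 from M82 (adjusted p = 0.606). With IL-7_2 array 2 left out the difference was 3.84 ± 0.13 (adjusted p = 4.86e-13).

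AO1 (Les.3530.1.S1_at) encodes an aldehyde oxidase, the kind of enzyme that needs the cofactor FLACCA activates. Its levels were 13.02, 12.92, 12.95 and 13.03 in IL-4_2 and 12.39, 11.62, 12.22 and 12.37 in IL-7_2, with M82 from 12.44 to 12.72. All IL-4_2 arrays lay above the M82 range and all IL-7_2 arrays below it. AO1 was 1.78-fold higher in IL-4_2 (log2 difference 0.83 ± 0.13, adjusted p = 0.000488), and neither line passed its own comparison with M82 (0.40, adjusted p = 0.127, and -0.43, adjusted p = 0.0732). Leaving out IL-7_2 array 2, the lowest, gave 0.65 ± 0.09 (adjusted p = 0.000151), and IL-4_2 then departed from M82 (adjusted p = 0.00727). Of the 10 measured genes of abscisic acid and desiccation, these 2 were higher in IL-4_2 and none was lower, where 2.14% of all probe sets were higher. The median difference was -0.01, against -0.00 over all probe sets. All lists were drawn up with results of these data known, so such shares describe the lists and are not tested. NCED1, the dioxygenase that commits carotenoids to abscisic acid, was not called (-0.33, adjusted p = 0.258), nor was ZEP, the zeaxanthin epoxidase upstream of it (-0.11, adjusted p = 0.737). TAO2, another aldehyde oxidase gene, was called without IL-7_2 array 2 (1.15, adjusted p = 0.033, neither line departing) and not with it (0.79, adjusted p = 0.285).

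Oxylipins are made from fatty acids that lipoxygenases have turned into hydroperoxides. From there hydroperoxide lyase (HPL) leads to short volatile aldehydes, and allene oxide synthase (AOS), allene oxide cyclase (AOC) and 12-oxophytodienoate reductase (OPR3) lead to jasmonate. HPL (Les.3478.1.S1_at) gave 13.75, 13.78, 13.80 and 13.84 in IL-4_2 and 11.50, 11.08, 12.37 and 12.10 in IL-7_2, while M82 lay between 13.58 and 13.71. The IL-7_2 arrays were all below M82, and the IL-4_2 arrays all lay slightly above it. HPL was 4.08-fold higher in IL-4_2 (2.03 ± 0.18, limma adjusted p = 1.79e-07), and 3.48-fold without IL-7_2 array 2 (1.80 ± 0.13, adjusted p = 1.76e-08). The departing line was IL-7_2 (-1.89 from M82, adjusted p = 2.37e-07), and IL-4_2 did not pass (0.14, adjusted p = 0.723).

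The genes of the jasmonate branch differed less firmly. OPR3 (Les.3762.1.S1_at) stood at 11.73, 11.90, 12.25 and 11.87 in IL-4_2 and at 11.33, 10.46, 11.64 and 11.45 in IL-7_2, with M82 from 11.37 to 11.67. The lines did not overlap, although IL-7_2 array 2 lay well under the rest. OPR3 was 1.64-fold higher in IL-4_2 (0.72 ± 0.19, adjusted p = 0.0298), and 0.46 ± 0.13 higher without that array (adjusted p = 0.023). Neither line departed from M82 with all arrays, and IL-4_2 did once IL-7_2 array 2 was out (adjusted p = 0.0387). The call on OPR3 ended without IL-4_2 array 2 (adjusted p = 0.0595), 3 (0.112) or 4 (0.0561). AOS (Les.13.1.S1_at) ranged from 7.51 to 8.63 in IL-4_2 and from 4.80 to 7.54 in IL-7_2, so that the lines overlapped. It was 3.81-fold higher in IL-4_2 (1.93 ± 0.54, adjusted p = 0.0425), with neither line departing from M82. That call ended when any 1 array of IL-4_2, IL-7_2 or M82 other than IL-7_2 array 1 was left out, with adjusted p between 0.0502 and 0.135. Without IL-7_2 array 2, AOS was no longer called (1.51 ± 0.53, adjusted p = 0.0601). AOC, the enzyme between AOS and OPR3, was not called (0.61, adjusted p = 0.114).

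Of the 14 oxylipin and jasmonate genes, HPL, AOS and OPR3 (21.4%) were higher in IL-4_2 and none was lower, where 4.92% of all probe sets were called in either direction. The list's median was 0.34. Without IL-7_2 array 2 the called genes were HPL, OPR3 and the lipoxygenase gene TomloxE (0.43, adjusted p = 0.022, neither line departing), and COI1, the jasmonate receptor subunit, was lower in IL-4_2 (-0.44, adjusted p = 0.004) with IL-7_2 departing from M82. These 4 are 28.6% of the list, where 14.7% of all probe sets were called. COI1 had missed the threshold with all arrays (-0.33, adjusted p = 0.070).

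**Figure D2:**
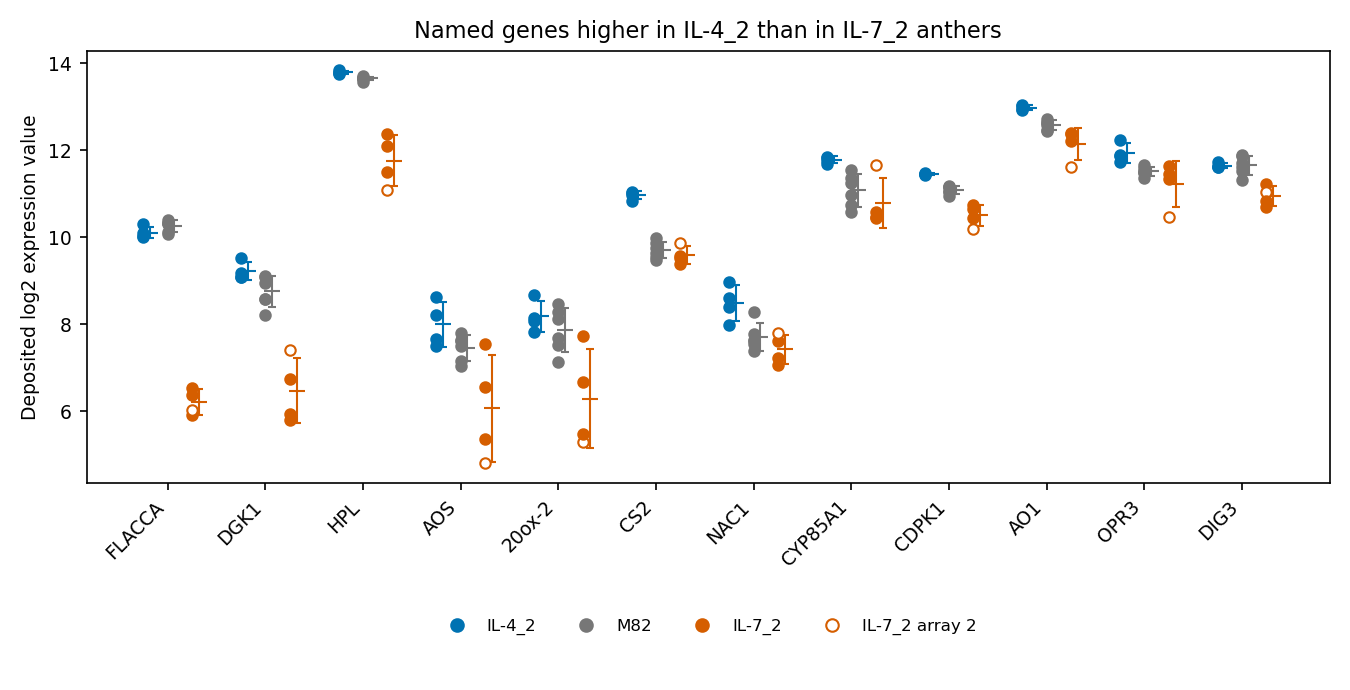
Deposited log2 values (vertical axis) of the named genes higher in IL-4_2, one point per array for IL-4_2, M82 and IL-7_2. Bars give the mean and SD of each group, and the open circle is IL-7_2 array 2. For FLACCA, HPL and DGK1 the 4 IL-7_2 arrays sit below the 6 M82 arrays, and for CS2 the 4 IL-4_2 arrays sit above them.

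DGK1 encodes a diacylglycerol kinase, which turns the lipid messenger diacylglycerol into phosphatidic acid. DGK1 (Les.3526.1.S1_a_at) read 9.09, 9.19, 9.53 and 9.09 in IL-4_2 and 6.73, 7.41, 5.80 and 5.94 in IL-7_2, with M82 from 8.21 to 9.11. Each IL-7_2 array lay below each M82 array. The gene was 6.76-fold higher in IL-4_2 (2.76 ± 0.27, limma adjusted p = 1.12e-06) and 8.40-fold without IL-7_2 array 2 (3.07 ± 0.23, adjusted p = 2.74e-08). IL-7_2 was the departing line (-2.29, adjusted p = 8.13e-06), and IL-4_2 did not pass against M82 (0.47, adjusted p = 0.458).

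CDPK1 (Les.923.1.S1_at) encodes a calcium-dependent protein kinase. It stood at 11.43, 11.46, 11.46 and 11.47 in IL-4_2 and at 10.66, 10.20, 10.73 and 10.44 in IL-7_2, with M82 between 10.94 and 11.17. M82 lay between the lines, which did not overlap with it or with each other. CDPK1 was 1.93-fold higher in IL-4_2 (0.95 ± 0.11, adjusted p = 8.15e-06) and IL-7_2 departed from M82 (-0.58, adjusted p = 0.00161). IL-4_2 missed the threshold with all arrays (0.37, adjusted p = 0.0752) and passed it without IL-7_2 array 2 (adjusted p = 0.0236), so that both lines then departed, in opposite directions. MKK3 (Les.1068.1.S1_at), a kinase of the MAP kinase cascade, was dim and ran the other way, at 5.05 to 5.53 in IL-4_2 and 5.72 to 6.36 in IL-7_2. Its difference was -0.80 ± 0.16 (adjusted p = 0.0034), and -0.70 without IL-7_2 array 2 (adjusted p = 0.00872). IL-7_2 departed from M82 (0.63, adjusted p = 0.0178), a call that ended without IL-7_2 array 2 (adjusted p = 0.0557) or 3 (0.0595).

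Of 15 kinase and lipid signalling genes, DGK1, CDPK1 and MKK4 were higher in IL-4_2, MKK3 was lower, and the median was 0.10. The 4 are 26.7% of the list, against 4.92% of all probe sets. MKK4, another MAP kinase kinase, differed by 0.42 (adjusted p = 0.0245), or 0.44 without IL-7_2 array 2 (adjusted p = 0.0191), with neither line departing. Leaving out IL-7_2 array 2 added the phospholipase D genes PLDa2 (0.92, adjusted p = 0.014) and PLDa3 (0.55, adjusted p = 0.002), whose enzymes make phosphatidic acid from membrane lipids. IL-4_2 departed from M82 at both PLDa2 and PLDa3 in that fit, in which 40.0% of the list and 14.7% of all probe sets were called.

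Gibberellin 20-oxidase makes the precursors of the active gibberellins. The gene 20ox-2 (Les.65.1.S1_at) stood at 8.68, 8.14, 7.83 and 8.06 in IL-4_2 and at 6.66, 5.28, 5.48 and 7.73 in IL-7_2, with M82 from 7.13 to 8.47. The lines did not overlap, but IL-7_2 array 4 lay within the M82 range. It was 3.71-fold higher in IL-4_2 (1.89 ± 0.42, limma adjusted p = 0.00909) and called without IL-7_2 array 2 too (1.56 ± 0.41, adjusted p = 0.0191). With all arrays IL-7_2 departed from M82 (-1.58, adjusted p = 0.0267). That departure ended without IL-7_2 array 2 (adjusted p = 0.0788) or 3 (0.102), or without M82 array 2 (0.0643) or 6 (0.0628). The other 7 gibberellin genes, among them the biosynthetic gene GA3ox1 (0.04, adjusted p = 0.907) and the signalling repressor GAI (-0.18, adjusted p = 0.554), were not called. The list's median was -0.02, and its 1 call of 8 is 12.5%, against 4.92% of all probe sets.

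CYP85A1 encodes an oxidase late in brassinosteroid synthesis. On its brighter probe set (Les.4443.1.A1_s_at) it stood at 11.83, 11.75, 11.85 and 11.68 in IL-4_2 and at 10.59, 11.65, 10.45 and 10.45 in IL-7_2, where array 2 alone reached nearly the IL-4_2 level. CYP85A1 was 1.99-fold higher in IL-4_2 (0.99 ± 0.23, adjusted p = 0.0145), and 2.43-fold without IL-7_2 array 2 (1.28 ± 0.18, adjusted p = 0.00012). With all arrays neither line departed from M82, which ranged from 10.59 to 11.55, and without that array IL-4_2 did (adjusted p = 0.0151). The call ended without IL-7_2 array 3 (adjusted p = 0.0567) or 4 (0.0565). A second probe set of the gene, Les.3645.1.S1_at, gave 1.01 (adjusted p = 0.0358), and 1.31 without IL-7_2 array 2 (adjusted p = 0.00102).

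IAA16 belongs to the Aux/IAA proteins, which hold auxin responses back until auxin triggers their breakdown. IAA16 (Les.3703.1.S1_at) gave 9.28, 9.08, 8.84 and 9.08 in IL-4_2 and 10.17, 9.76, 10.10 and 10.31 in IL-7_2, with M82 from 9.47 to 10.42. Here IL-4_2 lay below both other groups. IAA16 was 2.02-fold lower in IL-4_2 (-1.01 ± 0.23, limma adjusted p = 0.0112), or -1.12 ± 0.24 without IL-7_2 array 2 (adjusted p = 0.00658), and IL-4_2 departed from M82 (-1.05, adjusted p = 0.00846). A dimmer probe set of IAA16 had the same sign and was not called (-0.43, adjusted p = 0.393). Of 7 auxin genes IAA16 alone was called with all arrays, and the median was -0.05. That is 14.3% of the list, against 4.92% of all probe sets. Leaving out IL-7_2 array 2 added IAA3 (-1.70, adjusted p = 0.036), with neither line departing, where 28.6% of the list and 14.7% of all probe sets were called. None of the 31 ethylene genes was called by limma with all arrays (lowest adjusted p = 0.167, 2 genes with an unadjusted p under 0.05) or without IL-7_2 array 2 (0.069, 5 genes).

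The shikimate pathway leads from sugar phosphates to chorismate, the precursor of the aromatic amino acids. Of its 4 measured genes, 2 were called (50.0%, against 4.92% of all probe sets), and they moved in opposite directions. In both cases IL-4_2 departed from M82. The same 2 were called without IL-7_2 array 2, where 14.7% of all probe sets were. The list's median was -0.10 with all arrays and 0.12 without that array. CS2 (Les.3660.1.S1_at), for chorismate synthase, stood at 10.97, 11.02, 11.04 and 10.83 in IL-4_2 and at 9.53, 9.87, 9.39 and 9.57 in IL-7_2, with M82 from 9.47 to 9.97. IL-4_2 stood clear above both other groups. CS2 was 2.60-fold higher in IL-4_2 (1.38 ± 0.13, limma adjusted p = 9.06e-07), and 2.77-fold without IL-7_2 array 2 (1.47 ± 0.13, adjusted p = 5.27e-07). Against M82 it was 1.26 higher in IL-4_2 (adjusted p = 1.59e-06) and -0.12 in IL-7_2 (adjusted p = 0.747).

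SK (Les.53.1.S1_at), for shikimate kinase, stood at 10.39, 10.37, 10.34 and 10.34 in IL-4_2 and at 11.39, 11.92, 11.19 and 11.07 in IL-7_2, with M82 from 10.98 to 11.32. The 4 IL-4_2 arrays lay within a narrow band under all others. SK was 2.05-fold lower in IL-4_2 (-1.03 ± 0.13, adjusted p = 3.66e-05), and -0.86 ± 0.09 without IL-7_2 array 2, its highest (adjusted p = 6.42e-06). IL-4_2 departed from M82 by -0.81 (adjusted p = 0.000445). The other chorismate synthase gene, CS1 (-0.26, adjusted p = 0.529), and DHQS, for dehydroquinate synthase (0.05, adjusted p = 0.925), were not called.

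Among the genes of wall enzymes, 4 were called with all arrays (tXET-B2, MAN2, PME2.1 and PE1), each lower in IL-4_2. tXET-B2 (Les.429.1.S1_at) encodes a xyloglucan endotransglucosylase, which cuts and rejoins the chains that tether cellulose. It stood at 6.81, 6.82, 5.63 and 6.89 in IL-4_2 and at 9.98, 10.92, 9.97 and 10.29 in IL-7_2. M82 spread widely between the lines, from 6.41 to 9.19 (median 8.32), and overlapped IL-4_2 but not IL-7_2. tXET-B2 was 13.5-fold lower in IL-4_2 (-3.75 ± 0.51, limma adjusted p = 6.96e-05) and 11.7-fold without IL-7_2 array 2 (-3.54 ± 0.55, adjusted p = 0.000358). IL-7_2 departed from M82 (2.14, adjusted p = 0.014, and 1.93, adjusted p = 0.0434, without array 2), and IL-4_2 did not pass (-1.61, adjusted p = 0.105).

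PME2.1 encodes a pectin methylesterase, which strips methyl groups from pectin and so changes how firm the wall is. PME2.1 (Les.3630.1.S1_at) gave 7.66, 7.43, 6.84 and 7.70 in IL-4_2 and 9.35, 8.58, 10.75 and 10.41 in IL-7_2, with M82 from 6.82 to 8.27. All IL-7_2 arrays exceeded all others, array 2 by the least. PME2.1 was 5.16-fold lower in IL-4_2 (-2.37 ± 0.42, adjusted p = 0.0014), and 6.79-fold without IL-7_2 array 2 (-2.76 ± 0.39, adjusted p = 0.00012). The departure from M82 was that of IL-7_2 (2.02, adjusted p = 0.00434). PE1 (Les.3122.1.S1_a_at), another pectin methylesterase gene, was near the bottom of the scale, at 4.52 to 4.75 in IL-4_2 and 4.91 to 4.97 in IL-7_2. Its difference was small (-0.28 ± 0.06, adjusted p = 0.00649) and IL-7_2 departed from M82 (0.33, adjusted p = 0.00104). Without IL-7_2 array 2 it was -0.27 (adjusted p = 0.0104). The same 2 of 9 pectin enzyme genes (22.2%) were called with and without IL-7_2 array 2, against 4.92% and 14.7% of all probe sets. The list's median was -0.04 with all arrays and 0.08 without that array.

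MAN2 (Les.108.1.S1_at) encodes an endo-mannanase, which cuts mannan chains of the wall. Its levels were 9.98, 10.26, 10.37 and 10.74 in IL-4_2 and 12.18, 11.44, 11.89 and 11.46 in IL-7_2, with M82 from 9.21 to 11.42. MAN2 was 2.65-fold lower in IL-4_2 (-1.40 ± 0.38, adjusted p = 0.0382, and -1.51 ± 0.42, adjusted p = 0.0247, without IL-7_2 array 2). IL-7_2 departed from M82 (1.51, adjusted p = 0.0206), a call that ended without IL-7_2 array 1 (0.0791) or 3 (0.0598). The difference between the lines missed the threshold without IL-4_2 array 1 (adjusted p = 0.119), 2 (0.0894) or 3 (0.0823), or without IL-7_2 array 1 (0.102), 3 (0.0921) or 4 (0.0537).

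Of 41 genes for wall loosening, tXET-B2 and MAN2 were lower in IL-4_2 and none was higher, with a median of -0.05 and 19 differences above 0. These 2 are 4.88% of the list, a share no larger than the 4.92% called among all probe sets. Leaving out IL-7_2 array 2 raised the count to 9 lower and none higher (22.0%, against 14.7% of all probe sets) and moved the median to -0.22. The 7 added were the expansin genes EXP5 (-1.63, adjusted p = 0.019) and exp18 (-1.13, adjusted p = 0.032), XTH6, XET4, the beta-galactosidase gene TBG2, and the endoglucanase genes Cel2 and CELLULASE (-2.03, adjusted p = 0.005). IL-4_2 departed from M82 at EXP5, and neither line departed at the other 6.

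**Figure D3:**
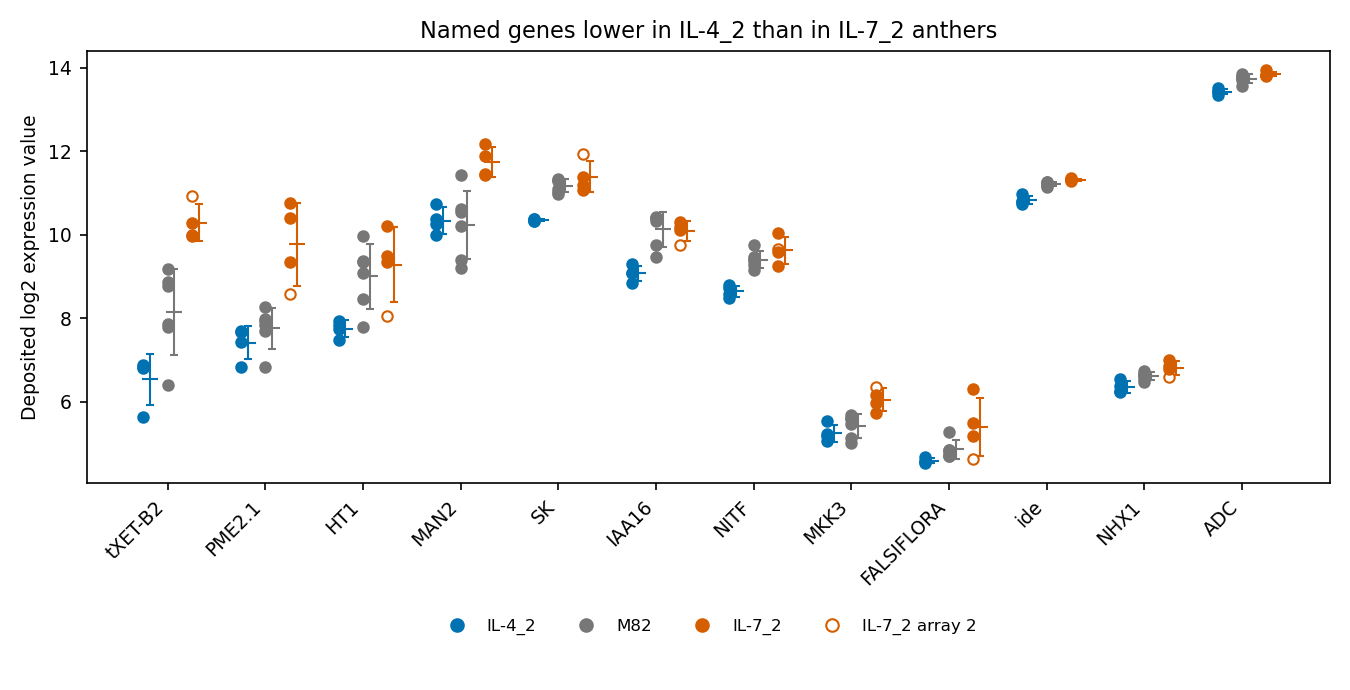
Deposited log2 values (vertical axis) of the named genes lower in IL-4_2, one point per array for IL-4_2, M82 and IL-7_2, with the mean and SD of each group and IL-7_2 array 2 as an open circle. At PME2.1 and tXET-B2 the 4 IL-7_2 arrays lie above all M82 arrays, while at SK and NITF the 4 IL-4_2 arrays lie below them.

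HT1 (Les.3725.1.S1_at) encodes a hexose transporter, which carries sugars such as glucose into cells. It stood at 7.75, 7.83, 7.47 and 7.94 in IL-4_2 and at 10.22, 8.06, 9.49 and 9.35 in IL-7_2, with M82 from 7.78 to 9.97. IL-4_2 lay around the bottom of the M82 range, and among the IL-7_2 arrays array 2 came nearest to it. HT1 was 2.89-fold lower in IL-4_2 (-1.53 ± 0.41, limma adjusted p = 0.0366), and 3.84-fold without IL-7_2 array 2 (-1.94 ± 0.38, adjusted p = 0.00281). Neither line departed from M82 with all arrays, and without that array IL-4_2 did (adjusted p = 0.0377). Leaving out any 1 of the other 7 arrays of the lines ended the call (adjusted p from 0.0643 to 0.114). HT2 (Les.3774.1.S1_at), another hexose transporter gene, was -0.34 ± 0.10 (adjusted p = 0.0484), with array ranges that overlapped, and neither line departed. Its call held without IL-4_2 array 2, IL-7_2 array 2 or M82 array 4 and ended without any 1 of the other 11 arrays of the 3 groups (adjusted p up to 0.176). Without IL-7_2 array 2 HT2 was -0.39 (adjusted p = 0.0166). The other 19 of the 21 sugar and starch genes were not called with all arrays, so that 9.52% of the list was called, against 4.92% of all probe sets. Without IL-7_2 array 2, FRK2, a fructokinase gene, was added (-0.32, adjusted p = 0.025, neither line departing), which made 14.3%, near the 14.7% of all probe sets.

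ADC (Les.179.1.S1_at) encodes arginine decarboxylase, which starts one route to the polyamines. It was bright throughout, at 13.45, 13.35, 13.41 and 13.50 in IL-4_2 and 13.83, 13.83, 13.93 and 13.81 in IL-7_2, with M82 from 13.55 to 13.84. IL-4_2 lay below every M82 and IL-7_2 array. ADC was lower in IL-4_2 by a log2 difference of -0.42 ± 0.07 (limma adjusted p = 0.000349), or -0.43 without IL-7_2 array 2 (adjusted p = 0.000747), and IL-4_2 departed from M82 (-0.31, adjusted p = 0.00671). ODC, for ornithine decarboxylase of the parallel route, was not called (-1.14, adjusted p = 0.144), and ADC was the one call among 6 genes of amine and nitrogen metabolism (16.7%, against 4.92% of all probe sets).

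Among 19 genes of photosynthesis and pigments, 2 (10.5%, against 4.92% of all probe sets) were called and both were higher in IL-4_2. Of the 19 differences 16 were above 0, where 49.5% of all probe sets were, and the median was 0.12. PsbQ (Les.1472.1.S1_at), a protein of the oxygen-evolving complex, stood at 11.89 to 12.02 in IL-4_2 and 11.36 to 11.69 in IL-7_2 (0.39 ± 0.11, limma adjusted p = 0.0457). IL-7_2 departed from M82 (-0.40, adjusted p = 0.0301). VDE (Les.3958.1.S1_at), for violaxanthin de-epoxidase, was 9.35 to 9.63 in IL-4_2 and 8.90 to 9.25 in IL-7_2 (0.47 ± 0.13, adjusted p = 0.0372), with neither line departing. The PsbQ call held without IL-7_2 array 2 or 3 or M82 array 3 or 6 and ended without any 1 of the other 10 arrays of the 3 groups (adjusted p up to 0.135). Its departure ended without IL-7_2 array 1 (0.124) or 4 (0.0608), or M82 array 1 (0.0607), 2 (0.0535), 5 (0.0585) or 6 (0.0756). Leaving out IL-4_2 array 1, 2 or 3 or IL-7_2 array 1, 3 or 4 ended the VDE call, with adjusted p from 0.0775 to 0.112. A dimmer VDE probe set gave 0.09 (adjusted p = 0.779). Without IL-7_2 array 2, PsbQ (0.41, adjusted p = 0.0278) and VDE (0.54, adjusted p = 0.0129) were called together with the carotenoid genes ZDS (0.43, adjusted p = 0.037) and NSY (0.63, adjusted p = 0.038), where neither line departed, and 21.1% of the list was called, against 14.7% of all probe sets.

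NAC1 (Les.4483.1.S1_at), a transcription factor of the NAC family, stood at 7.98, 8.38, 8.98 and 8.61 in IL-4_2 and at 7.61, 7.79, 7.06 and 7.22 in IL-7_2. It was 2.1-fold higher in IL-4_2 (1.07 ± 0.26, limma adjusted p = 0.0212, and 1.19, adjusted p = 0.0109, without IL-7_2 array 2), and neither line departed from M82 (7.38 to 8.29). The call ended without IL-4_2 array 3 (adjusted p = 0.0882) or 4 (0.0616), or IL-7_2 array 3 (0.0757) or 4 (0.0654). NAC1 was the one call among 30 transcription factor genes (3.33%, under the 4.92% of all probe sets). The genes AG1, TDR8, abz1 and THM27 joined it when IL-7_2 array 2 was left out, all higher in IL-4_2, which made 16.7%, close to the 14.7% of all probe sets. IL-4_2 departed from M82 at TDR8, and neither line at the other 3.

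FALSIFLORA (Les.3745.1.S1_at), the tomato counterpart of LEAFY that gives flowers their identity, was dim in all groups. It lay at 4.56, 4.68, 4.53 and 4.58 in IL-4_2 and at 5.17, 4.61, 5.48 and 6.29 in IL-7_2, so that the lines overlapped through IL-7_2 array 2. Its difference was -0.80 ± 0.23 (adjusted p = 0.0466) with neither line departing, and -1.06 ± 0.19 (adjusted p = 0.00127) without that array, when IL-7_2 departed from M82 (0.80, adjusted p = 0.0136). With all arrays as the start, the call ended without any 1 of 12 of the 14 arrays of the 3 groups, with adjusted p up to 0.113. The exceptions were IL-7_2 array 2 and M82 array 5.

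The remaining named genes differed by less than 2-fold. DIG3 (Les.4526.1.S1_at) was 0.70 ± 0.13 higher in IL-4_2 (adjusted p = 0.00201) with IL-7_2 departing from M82. NITF (Les.3499.1.S1_at), at -0.98 ± 0.14 (adjusted p = 0.000137), and ide (Les.3770.1.S1_at), at -0.49 ± 0.06 (adjusted p = 9.44e-06), were lower in IL-4_2, and IL-4_2 departed at both. NHX1 (Les.3485.1.S1_at), for a vacuolar exchanger of sodium for protons, was -0.44 ± 0.10 (adjusted p = 0.00845) with neither line departing. These 4 calls were also made without IL-7_2 array 2, at 0.72, -0.98, -0.50 and -0.52 in that order. None of 21 redox genes was called by limma with all arrays (lowest adjusted p = 0.231, 1 gene with an unadjusted p under 0.05) or without IL-7_2 array 2 (0.09, 3 genes). None of the 11 defence genes was called with all arrays (lowest adjusted p = 0.12, 1 gene with an unadjusted p under 0.05), and without that array P69B (-0.82, adjusted p = 0.026) and CHI9 (-0.84, adjusted p = 0.033) were lower in IL-4_2, with neither line departing, which is 18.2% of the list, against 14.7% of all probe sets.

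In both directions the largest difference sat on a probe set that has no gene name here. Les.2423.1.A1_at stood at 5.73, 5.49, 5.55 and 5.27 in IL-4_2 and at 11.92, 10.90, 12.35 and 12.15 in IL-7_2, with M82 from 11.70 to 12.26. It was thus near the bottom of the scale in IL-4_2 and bright elsewhere, 80.0-fold lower in IL-4_2 than in IL-7_2 (-6.32 ± 0.24, limma adjusted p = 1.14e-12), and 99.1-fold without IL-7_2 array 2. IL-4_2 departed from M82 by -6.51. The next 3 unnamed probe sets lower in IL-4_2, Les.612.1.S1_at (-4.70, adjusted p = 7.89e-08), Les.2716.1.A1_at (-4.40, adjusted p = 1.07e-15) and Les.5783.1.S1_at (-4.35, adjusted p = 3.31e-18), were also departures of IL-4_2. They stood at -4.47, -4.43 and -4.33 in that order without IL-7_2 array 2, with the same line departing.

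In the other direction Les.413.1.S1_s_at stood at 11.70, 11.95, 12.85 and 12.45 in IL-4_2 and at 7.35, 6.79, 8.23 and 7.65 in IL-7_2, with M82 from 11.51 to 13.15. It was 26.6-fold higher in IL-4_2 (4.73 ± 0.35, adjusted p = 1.77e-08) and IL-7_2 departed from M82 (-4.71). It was 22.6-fold higher without IL-7_2 array 2 (4.50 ± 0.36, adjusted p = 6.96e-08). Les.1577.1.A1_at was a departure of IL-7_2 as well (3.55 ± 0.16 between the lines, adjusted p = 1.3e-11, and 3.79 ± 0.09, adjusted p = 1.8e-15, without IL-7_2 array 2). LesAffx.62131.1.S1_at was a departure of IL-4_2, 10.6-fold higher with all arrays (3.41 ± 0.53, adjusted p = 0.000309) and 6.89-fold without IL-7_2 array 2 (2.79 ± 0.43, adjusted p = 0.000311).

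LesAffx.105.1.S1_at varied far more within groups. It read 12.27, 11.24, 13.40 and 11.73 in IL-4_2 and 7.70, 11.58, 6.47 and 6.93 in IL-7_2, so that IL-7_2 array 2 alone lay within the IL-4_2 range. Its difference was 3.99 ± 1.04 (adjusted p = 0.0302) with neither line departing, and 5.13 ± 0.89 (adjusted p = 0.00113) without that array, when IL-4_2 departed from M82. With that array kept, the call ended without IL-4_2 array 1 (adjusted p = 0.0709), 3 (0.103) or 4 (0.0547), or IL-7_2 array 1 (0.0702), 3 (0.103) or 4 (0.0959).

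IL-7_2 array 2 decided how many probe sets differed between the lines. Without it 1483 of 10101 were called (14.7%), 625 higher in IL-4_2 (6.19%) and 858 lower (8.49%). The 2 sets of calls shared 484 probe sets, which is 97.4% of the 497 and 32.6% of the 1483, and all 484 kept their sign. Calls of at least 2-fold grew from 170 to 327, and those of at least 8-fold from 26 to 35. Against M82, 310 probe sets (3.07%) were then called for IL-4_2 and 361 (3.57%) for IL-7_2. The median SD within IL-7_2 was 0.249 with array 2 and 0.163 without it, against 0.135 in IL-4_2. Array 2 lay outside the range of the other 3 IL-7_2 arrays at 7784 probe sets (77.1%).

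Of the 999 calls that came in without array 2, 994 had array 2 on the IL-4_2 side of the mean of the other IL-7_2 arrays. That their difference grew when array 2 was left out follows from this position and is no separate result. Neither line departed from M82 at 968 of the 1483, against 180 of the 497. The departures kept the same line at 413 of the 484 shared calls. Among genes with a descriptive symbol, 66 were gained and AOS was lost.

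**Figure D4:**
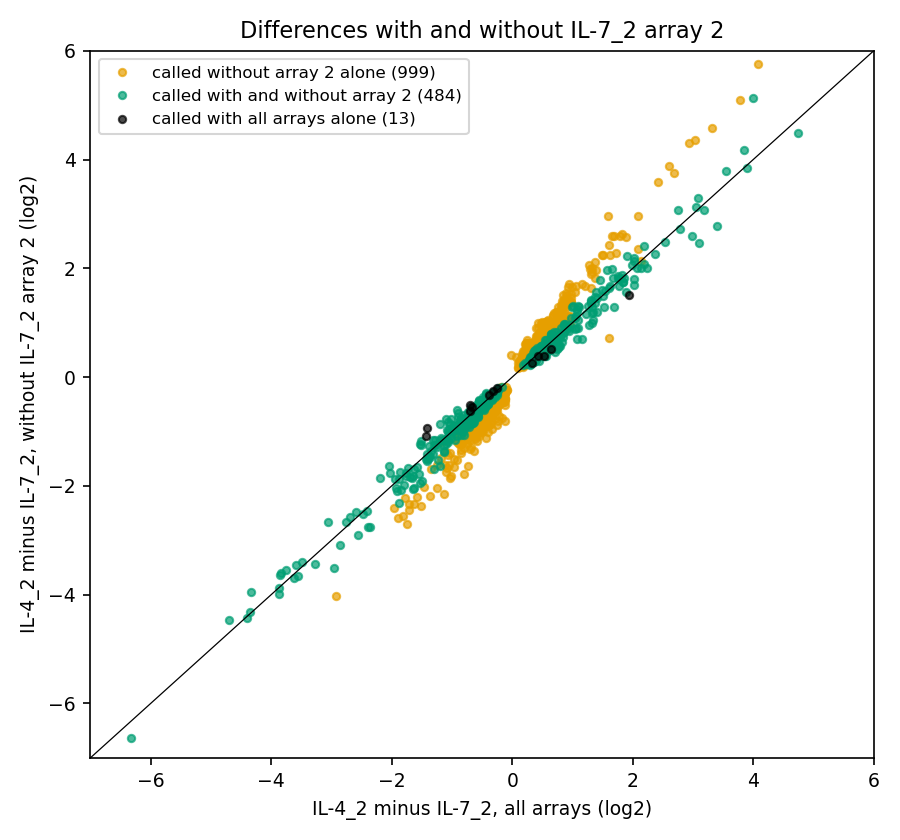
Log2 difference between IL-4_2 and IL-7_2 with all arrays (horizontal axis) and without IL-7_2 array 2 (vertical axis), one point per probe set called in either fit. The 484 shared calls lie near the diagonal, and 994 of the 999 calls made only without array 2 lie farther from zero on the vertical axis than on the horizontal one.

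The 5 genes of largest difference among those gained show what array 2 changed. XET4, of the same enzyme family as tXET-B2, stood at 6.83, 5.79, 4.70 and 5.99 in IL-4_2 and at 6.16, 4.76, 9.47 and 8.97 in IL-7_2. RNALE, an extracellular ribonuclease gene, stood at 7.48, 7.21, 6.93 and 7.65 in IL-4_2 and at 7.88, 7.17, 10.52 and 10.55 in IL-7_2. The gene listed as ca2 stood at 10.53, 10.46, 11.45 and 11.14 in IL-4_2 and at 10.66, 11.13, 7.06 and 8.21 in IL-7_2. In all 3 cases IL-7_2 arrays 3 and 4 lay on one side, away from the IL-4_2 levels, while IL-7_2 arrays 1 and 2 were near them.

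Leaving out array 2 moved XET4 from -1.51 (limma adjusted p = 0.374) to -2.37 ± 0.74 (adjusted p = 0.0402), RNALE from -1.71 (adjusted p = 0.123) to -2.33 (adjusted p = 0.00846), and ca2 from 1.63 (adjusted p = 0.239) to 2.25 (adjusted p = 0.034). Of the 3 other ca2 probe sets, 1 was called without array 2 (2.59, adjusted p = 0.0402) and 2 were not (adjusted p = 0.0539 and 0.0605). AGAL, for an alpha-galactosidase, went from -1.14 (adjusted p = 0.539) to -2.15 (adjusted p = 0.0468). Neither line departed from M82 at any of these 4 genes. At the fifth, MT3, IL-4_2 departed from M82 (3.02, adjusted p = 0.0142), and the difference between the lines went from 2.09 (adjusted p = 0.107) to 2.35 (adjusted p = 0.0456). That departure, given for all arrays, ended without IL-4_2 array 1 (adjusted p = 0.0716) or 3 (0.0775). MT3 ranged from 9.08 to 11.26 in IL-4_2, from 7.26 to 9.70 in IL-7_2 and from 6.39 to 9.17 in M82.

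Pooled over all 5 groups, the deviations of the arrays from their group means varied mainly along one axis, their first principal component. This axis held 59.2% of the pooled variance within groups and was computed with IL-7_2 array 2 included. Its share was not computed for each group. On this axis IL-7_2 arrays 1 to 4 scored 1.06, 55.9, -45.7 and -40.4, and IL-4_2 arrays 1 to 4 scored -2.58, -0.90, 28.0 and 1.21. The IL-7_2 mean was -7.29 ± 47.0 (SD, n = 4) and without array 2 it was -28.4 ± 25.6 (SD, n = 3), against 6.42 ± 14.4 in IL-4_2 and -12.0 ± 24.0 in M82 (SD, n = 6). Leaving out array 2 therefore set the lines farther apart along an axis on which arrays of one group also differ. The part of this axis in the gained calls was not tested.

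**Figure D5:**
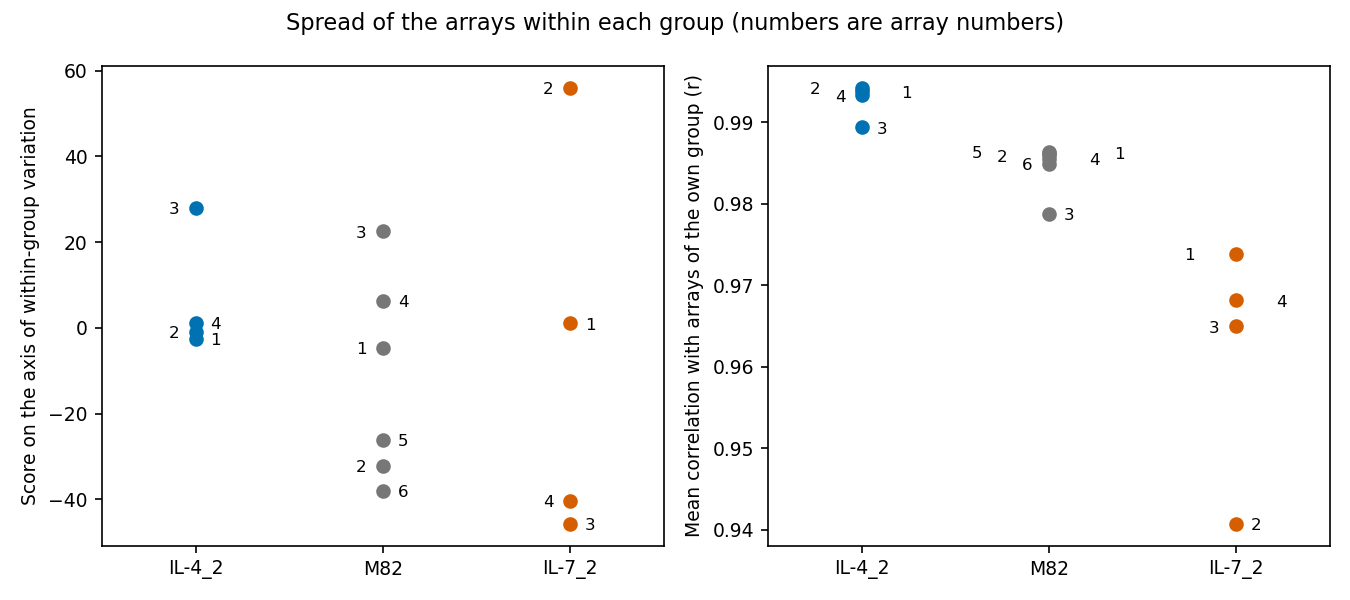
Left, the score of each IL-4_2, M82 and IL-7_2 array on the axis of variation within groups, and right, its mean Pearson correlation with the arrays of its own group across probe sets. Numbers are array numbers. IL-7_2 array 2 has the highest score (55.9) and the lowest mean correlation (0.941).

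The pollen marker list was set beside this. None of the 7 was called with all arrays (2 had an unadjusted p under 0.05), and PRK1, a receptor kinase of the pollen tube, was higher in IL-4_2 without array 2 (1.25, adjusted p = 0.013). That is 14.3% of the list, near the 14.7% of all probe sets called in that fit. PRK1 departed from M82 in neither line. The mean of the 7 minus its M82 mean was -0.18, 0.59, -0.67 and -0.58 on IL-7_2 arrays 1 to 4, and -0.09, -0.10, 0.49 and 0.26 on those of IL-4_2, while M82 arrays ran from -0.35 to 0.39. IL-7_2 array 2 was thus the highest and IL-7_2 arrays 3 and 4 the lowest. Stig1 was near the bottom of the scale, with means of 4.40 in IL-4_2 and 4.23 in IL-7_2. With Stig1 and lin5 left out, a choice made after seeing the data, the mean of the remaining 5 was -0.29, 0.75, -0.96 and -0.83 on IL-7_2 arrays 1 to 4, -0.15, -0.07, 0.64 and 0.35 on those of IL-4_2, and -0.49 to 0.49 in M82. For the 5 markers of green wall layers the same measure ran from -0.35 to -0.06 in IL-4_2, from -0.68 to -0.22 in IL-7_2 and from -0.40 to 0.33 in M82, and PsbQ was the one of the 5 that was called, with and without array 2. Their part in the differences between the lines was not tested.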

How the data were processed

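Anther RNA was measured on 21 one-colour Affymetrix tomato arrays (IL-4_2, IL-7_2 and IL-8_1_1 with 4 arrays each, M82 with 6 and IL-1_1_3 with 3), grouped by their titles. The values the authors deposited are log2 expression values, 1 for each probe set on each array, made with the affy package per the submitters' processing notes. How probes were summarised and arrays normalised is not given in the sources used here. That the scale is log2 follows from the range. The labels carry no batch or scan date to test. The table lists 10209 probe sets, and 10101 were tested once the 108 AFFX controls had been removed. The platform annotation, which can be old, named 909 of them (802 genes, of which 626 have a descriptive symbol). A symbol made of LOC and a number was not counted as descriptive.

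All 21 arrays in 5 groups entered a single linear model fitted with lmFit and eBayes of limma 3.58.1 (R 4.3.3), which left 16 residual degrees of freedom, with contrasts between IL-4_2, IL-7_2 and M82. P-values were adjusted by the Benjamini-Hochberg method over all probe sets of a contrast. IL-1_1_3 and IL-8_1_1 entered only the estimate of the spread. Errors of differences are the model's SE. They rest on a spread pooled over the groups and do not reflect the wider spread within IL-7_2. The median SD was 0.249 within IL-7_2 and 0.135 within IL-4_2. The model was also run on simulated data with independent noise, which lacks the axis of variation shared by the real arrays. That run therefore cannot tell how the model does with such variation.

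A gene with several probe sets was represented by the brightest, by its mean over the 21 arrays. Named were the 12 largest differences in each direction among called genes with a descriptive symbol, up to 3 called members of each gene list, 4 unnamed probe sets in each direction, and 5 genes called only without or only with IL-7_2 array 2. MKK4 and the members of lists given as not called, or called only without IL-7_2 array 2, were named after their values were seen, as were the marker genes' values. The groups, the 15 lists (247 genes, assigned by hand from their symbols) and the genes were chosen with earlier results of these data known. A planned list of metal-binding genes was not used, because the symbols alone do not settle its members. Alternatives were leaving out each array, the lines alone or with M82, other scalings, a filter on dim probe sets, array weights, trended and robust variances, a replicate block, leaving out reporter probe sets and a stricter threshold. Fitting the lines alone without IL-7_2 array 2, and the pollen markers without Stig1 and lin5, were added after seeing the data.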

Additional observations from a re-analysis of the deposited data

Results flagged for a closer look

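Within groups of 4 or 6 arrays, 129 sets of values were checked for an array whose gap to its nearest neighbour was too large a part of the group's range (Dixon's 95% criterion), and 8 met it, where chance gives about 1 in 20. On IL-7_2 array 2, CYP85A1 read 11.65 and the unnamed probe set Les.612.1.S1_at 11.32, each far from the other IL-7_2 arrays. CDPK1 read 11.43 on IL-4_2 array 1, although the 4 IL-4_2 arrays lay within a narrow band. tXET-B2 read 5.63 on IL-4_2 array 3, below the other IL-4_2 arrays. On M82 arrays FALSIFLORA read 5.28 on array 5 and AGAL 7.04 on array 3, which bears on the lines only through the comparison with M82. IL-4_2 array 3 stood apart on the axis of variation within groups, with a score of 21.5 after its group mean was taken off. M82 array 3 had a mean correlation of 0.979 with the other M82 arrays, the lowest of that group. IL-7_2 array 2 did not meet the criterion on the axis of variation within groups or in its mean correlation.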

How the results depend on the processing

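The 497 differing probe sets became 204 when IL-4_2 and IL-7_2 were fitted alone, 4125 with array weights (which gave IL-7_2 array 2 a weight of 0.094), and 287 at an adjusted p of 0.01. Leaving out 1 array of the 3 groups gave 370 (without IL-4_2 array 3) to 1483 (without IL-7_2 array 2), and fitting the lines alone without IL-7_2 array 2 gave 730. The 23 called members of gene lists became 10 with the lines alone, 102 with array weights and 13 at an adjusted p of 0.01, and 15 to 44 with 1 array left out. Named results where IL-7_2 alone departed from M82 went from 14 to 9 at an adjusted p of 0.01, and those where IL-4_2 alone departed from 12 to 20 with array weights. Cyclic loess scaling gave 469 calls (229 higher in IL-4_2, 240 lower) and quantile normalization 501 (228 and 273). No named difference changed sign under any alternative, and 18 of 41 differences between the lines kept their side of the threshold under all of them. With the lines alone, where the other groups no longer enter the estimate of the spread, 16 named calls ended. They were FALSIFLORA (limma adjusted p = 0.368), OPR3 (0.311), HT2 (0.247), AOS (0.208), 20ox-2 (0.165), LesAffx.105.1.S1_at (0.16), PE1 (0.149) and HT1 (0.145). The others were CYP85A1 (0.144), NHX1 (0.136), PsbQ (0.112), NAC1 (0.0891), VDE (0.0812), AO1 (0.06), PME2.1 (0.0516) and MKK3 (0.0516). FALSIFLORA was lost under cyclic loess (0.0551) and quantile normalization (0.0532). Replicate numbers did not pair the lines: deviations of same-numbered arrays correlated at -0.155, -0.438, -0.675 and 0.268, and a replicate block gave 399 calls. Under the block the departures from M82 of IAA16 (adjusted p = 0.0627), ADC (0.112), 20ox-2 (0.0845), PsbQ (0.221) and MT3 (0.233) missed the threshold. Differences between the lines that the block ended were those of AOS (0.0649), FALSIFLORA (0.0682), VDE (0.0793), PsbQ (0.0791), HT2 (0.117) and LesAffx.105.1.S1_at (0.0597). The fit of both lines with M82 gave 364 calls and ended 8 named ones (CYP85A1, OPR3, HT1, MAN2, FALSIFLORA, VDE, HT2 and LesAffx.105.1.S1_at). That fit also ended the departures of 20ox-2 (adjusted p = 0.0965), MAN2 (0.0558), MKK3 (0.0703) and MT3 (0.0539). Signal over background is unknown, so differences of dim probe sets such as PE1, MKK3 and FALSIFLORA are differences of measured values.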

Other observations

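Some called genes lay outside the naming rule and were picked out after their values were seen. The locus-numbered gene LOC543817 was among the largest differences with any gene assigned, at a mean of 12.04 in IL-4_2 and 8.19 in IL-7_2 (3.85, limma adjusted p = 2.22e-09, and 4.17 without IL-7_2 array 2), and IL-7_2 departed from the M82 mean of 11.68. LOC606305 was also low in IL-7_2 (1.86 between the lines, adjusted p = 3.12e-10, and 1.83 without that array), while LOC543836 was high there (-2.19, adjusted p = 0.0132, and -1.86, adjusted p = 0.026, without it). VAHOX1, a homeodomain-leucine zipper gene, was 0.38 higher in IL-4_2 (adjusted p = 0.00379, and 0.32, adjusted p = 0.00845, without IL-7_2 array 2), with neither line departing from M82. Probe sets of mMDH1, a malate dehydrogenase gene by its symbol, disagreed: the brighter one was not called (0.10, adjusted p = 0.63, and 0.05, adjusted p = 0.737, without that array), and the other was 0.84 higher in IL-4_2 (adjusted p = 4.81e-07, and 0.80, adjusted p = 2.52e-06, without it), with IL-7_2 departing from M82 by -0.78.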
